A study of Mus musculus with 21 samples.

Results

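The genes described here are 9 genes of cell cycle arrest and mitosis taken as a group of p53 targets: Btg2, Rb1, Plk2, Plk3, Gtse1, Psrc1, Ckap2, Sfn and Gadd45a. They were chosen for their known roles but with earlier results of these data known, and they are 9 of 21900 protein-coding genes in the RefSeq annotation of GRCm38.p6, the assembly that mm10 represents. Each was followed through 3 deposited lists of p53 antibody peaks, and a peak was counted where the deposited annotation named the gene or where it fell within 5 kb of the gene's RefSeq span. This gave 9 of the 2127 WT-specific peaks, 10 of the 6811 WT peaks and 3 of the 9784 KO peaks.

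The peaks come from CUT&RUN, a method that uses an antibody to bring a nuclease to a chromatin protein inside permeabilised cells, where it cuts out the DNA beside that protein. The cells were ID8, an immortalized epithelial line from the ovarian surface of C57BL/6 mice, untreated and in asynchronous growth, so no group had been given a DNA damaging agent. WT cells were Trp53+/+ (2 samples with the p53 antibody) and KO cells were Trp53-/- (2 samples), and the labels do not say whether the KO cells are 1 clone. The other 17 of 21 samples, with antibodies to histone modifications or IgG, were not analysed here.

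Each genotype has 1 list for its 2 samples. The lists give only positions, so a value below has no replicate behind it, no test across samples was possible, and the depth is unknown. The KO list is the background of the same antibody in cells without p53. The WT-specific list was deposited as such, by a rule not given in the sources used here, so the scarcity of KO peaks under it is partly a property of how it was made. At Trp53 itself, 1 WT-specific peak and no KO peak lay within 5 kb of the gene. A peak list holds no expression, so it gives no check of the epithelial identity of the cells or of the amount of p53.

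The transcription factor p53 binds DNA as a tetramer, at paired copies of a short half-site, and raises transcription of genes that halt the cell cycle. Genes of cell cycle arrest act at different points of the cycle. Some hold cells before DNA replication, as the retinoblastoma protein does when it restrains E2F factors. Others hold cells before mitosis or act on the spindle. Several genes of mitosis fall when p53 is active, but this repression mainly runs through p21 and the DREAM complex and needs no p53 at the repressed gene.

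Of the 9 genes, 7 had a WT-specific peak within 5 kb or by label: Btg2, Rb1, Plk2, Plk3, Gtse1, Psrc1 and Ckap2. Among all protein-coding genes 4.93% had one within 5 kb, and among all 49997 RefSeq genes 3.32% did. Since the 9 genes were chosen with such results in view, their count is a description and no evidence of enrichment. The same 7 genes had a peak in the WT list, against 13.0% of protein-coding genes. Sfn and Gadd45a had no peak in any of the 3 lists. A KO peak lay near 3 of the 9 (Btg2, Plk2 and Rb1), against 15.9% of protein-coding genes. The choice of genes also bears on any contrast between the lists, which was not tested. All 9 WT-specific intervals were identical to an interval of the WT list.

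Long genes meet a peak more often by their span alone, so the start of each gene was examined as well. The RefSeq promoter table, which holds the 250 bases before and the first 50 bases of transcripts, covered 8 of the 9 genes in 10 windows, and Rb1 was not in it. A WT-specific peak overlapped a window of 5 of the 8 (Btg2, Plk2, Gtse1, Psrc1 and Ckap2), against 0.635% of 17492 protein-coding genes with a window. A WT peak did so for the same 5 genes, against 2.65%. A KO peak overlapped the window of Plk2 alone, 1 of 8, against 4.18%.

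**Figure D1:**
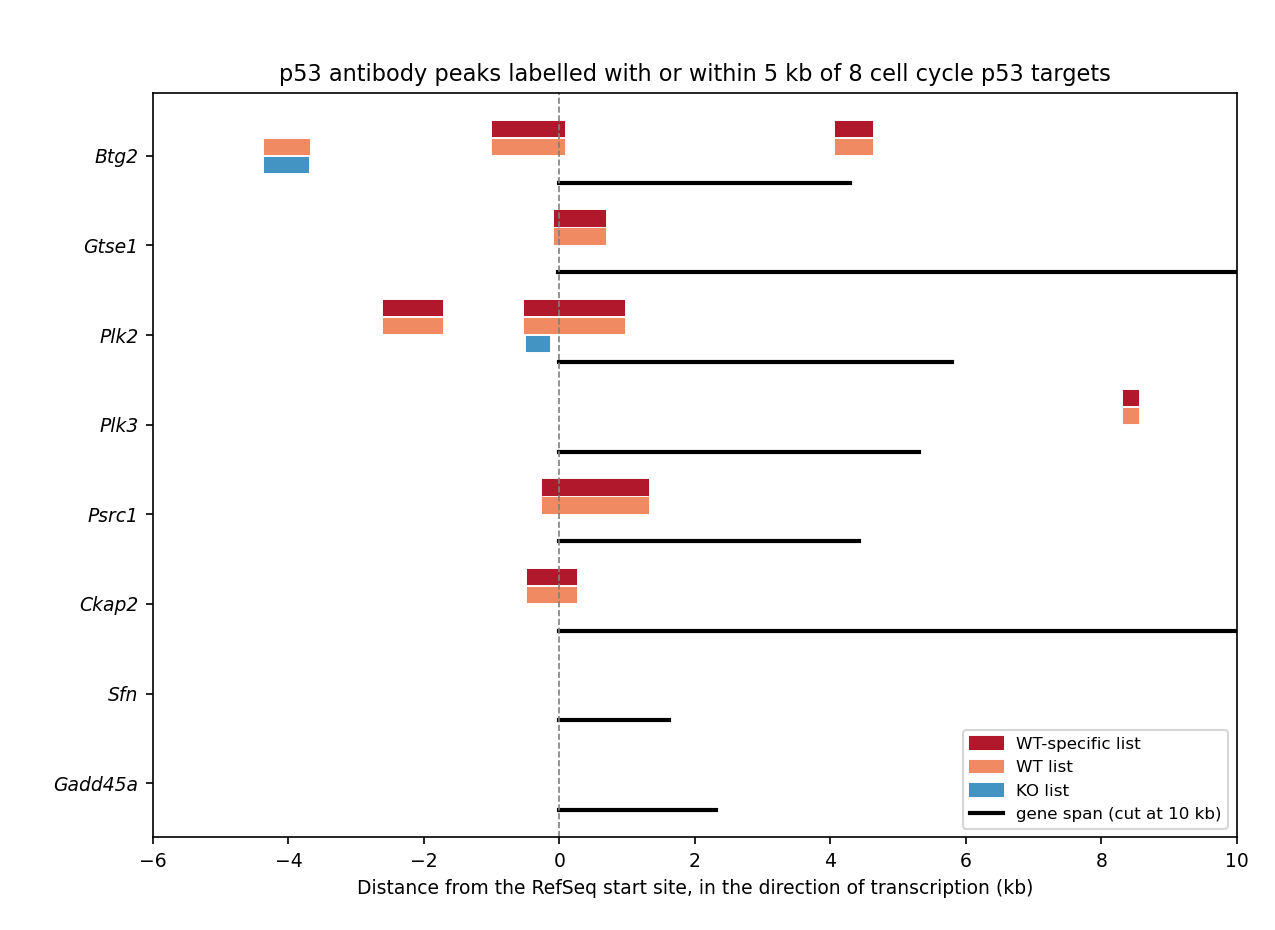
Positions of peaks around 8 of the genes (rows), with transcription running to the right. The horizontal axis is the distance in kb from the outermost start site of each gene's RefSeq promoter windows. Red boxes are WT-specific peaks, orange boxes WT peaks, blue boxes KO peaks and black lines gene spans. In 5 genes a WT-specific peak crosses the start site, Plk3 has only a peak downstream of its end, and the rows of Sfn and Gadd45a hold a gene span but no peak.

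Btg2 encodes an antiproliferative protein of the BTG and TOB family, which works with the CCR4-NOT deadenylase complex and slows entry into DNA replication. Its RefSeq gene lies at chr1:134074865-134079155 on the minus strand. The promoter peak at chr1:134079080-134080135 was 1056 bp wide and reached from 980 bp before the start site to 75 bp after it. Only 76 bp of that peak lay inside the gene, so this was the most upstream in position of the 5 peaks that crossed a start site. No KO peak overlapped it, and 2735 bp separated it from the nearest one.

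A second WT-specific peak of 532 bp at chr1:134074540-134075071 sat at the other end of Btg2. The deposited annotation calls it intergenic with no gene name, whereas 207 bp of it fell inside the RefSeq span, across the 3' end of the gene. Upstream of Btg2, at chr1:134082851-134083503, a WT peak of 653 bp was matched by a KO peak of 634 bp, which covered 96.9% of it. Btg2 thus had a promoter peak and a 3' end peak in WT cells only, and an upstream peak of like width in both genotypes. The shared WT peak lay 3695 bp from the gene, the farthest of any WT peak counted here.

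The next intervals upstream of Btg2, beyond the 5 kb limit, were again seen in both genotypes: a WT peak of 220 bp at 7799 bp from the gene faced a KO peak of 383 bp at 7739 bp. At 21464 bp from Btg2 the WT-specific list resumed with a peak of 1222 bp, labelled as the promoter of RP23-393C3.4 and overlapping an ORR1F long terminal repeat. The WT-specific peak closest outside the limit was at Ckap2, where one of 438 bp lay 6469 bp away and was labelled with the promoter of Vps36. Neither of these WT-specific peaks is counted.

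Rb1 encodes the retinoblastoma protein, the pocket protein that binds E2F factors and keeps their target genes off until cyclin-dependent kinases phosphorylate it. It is not among the classical targets of p53. Its gene is by far the longest of the 9, at 133094 bp (chr14:73192858-73325951). A WT-specific peak of 515 bp at chr14:73325752-73326266, annotated as the Rb1 promoter, spanned the high-coordinate end of the gene, with 200 bp inside it. It overlapped no repeat, and the nearest KO peak was 59178 bp away.

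Rb1 also had a KO peak of 216 bp at chr14:73234459-73234674, inside the gene span and 91077 bp from the nearest WT peak. It was among the narrowest 18.6% of the KO list. Rb1 was the 1 gene of 9 with a KO peak free of any WT peak, against 10.9% of protein-coding genes, and so no more frequent than the background. The WT and KO peaks of Rb1 therefore marked different places, unlike those of Btg2 and Plk2.

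Plk2 and Plk3 encode polo-like kinases. Both respond to stress, and Plk2 acts on centriole duplication and early in the cycle, whereas the family's founding member, Plk1, drives mitosis. Plk2 (chr13:110395044-110400844, plus strand) had 2 WT-specific peaks, both annotated as its promoter. The first, of 858 bp at chr13:110392460-110393317, lay wholly upstream and ended 1727 bp before the start site. The second, of 1454 bp at chr13:110394540-110395993, ran from 504 bp before the start site to 949 bp after it.

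The second Plk2 peak was the only one of the 9 WT-specific peaks to overlap a KO peak. That KO peak, of 329 bp at chr13:110394565-110394893, lay entirely within it and covered 22.6% of it. It ended 151 bp before the start site, so the start site and the first 949 bp of the gene were under the WT peak alone. Across the whole WT-specific list 3.34% of peaks overlapped a KO peak, and 4.32% of those in the promoter class did. The 250 bases before the Plk2 start site show this boundary and are printed from the RefSeq promoter table (GRCm38.p6, plus strand, chr13:110394794-110395043), with the 100 bases that lie under both the WT-specific and the KO peak in capitals and those under the WT-specific peak alone in lower case.
Plk2: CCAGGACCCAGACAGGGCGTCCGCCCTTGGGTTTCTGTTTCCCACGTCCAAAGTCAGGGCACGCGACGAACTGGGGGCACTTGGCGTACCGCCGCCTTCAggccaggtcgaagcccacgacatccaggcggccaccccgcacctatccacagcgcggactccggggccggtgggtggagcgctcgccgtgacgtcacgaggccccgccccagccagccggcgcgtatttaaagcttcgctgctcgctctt

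Plk3 (chr4:117128655-117133963, minus strand) was counted by distance only. Its single WT-specific peak, of 209 bp at chr4:117125423-117125631, lay 3023 bp beyond the 3' end of the gene and 8331 bp from its start site. The deposited annotation gave this peak to the promoter of Tctex1d4, whose RefSeq start site was 1181 bp away. It fell inside the RefSeq spans of both Tctex1d4 and another gene, Btbd19, and only 26 bp from the start site of Btbd19. The peak was also the narrowest of the 9, and the window at the Plk3 start held no peak of any list. Position thus ties this interval less closely to Plk3 than to either neighbour.

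Gtse1, Psrc1 and Ckap2 encode proteins of microtubules and the spindle. Gtse1 is expressed in the second gap phase and mitosis, associates with microtubules and takes p53 out of the nucleus. Psrc1, also known as Dda3, binds microtubules and takes part in spindle dynamics and chromosome alignment. Ckap2 is a cytoskeleton-associated protein that stabilises spindle microtubules. Each of the 3 had 1 WT-specific peak, annotated as its promoter and crossing a start site, and none had a KO peak within 5 kb.

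The Gtse1 peak, of 736 bp at chr15:85859645-85860380, began 62 bp before the outermost start site of the gene's promoter windows and reached 673 bp past that site. Of its length, 690 bp lay inside the gene (chr15:85859691-85876573, plus strand). The Psrc1 peak, of 1559 bp at chr3:108383561-108385119, was the widest of the 9. It reached from 243 bp before the start site to 1315 bp after it in a gene of 4428 bp (chr3:108383804-108388231, plus strand). The Ckap2 peak, of 707 bp at chr8:22185571-22186277, was shifted upstream, from 458 bp before the start site to 248 bp after it (gene at chr8:22168149-22185819, minus strand).

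Isolation from KO peaks differed among these 3 genes, though none was overlapped. The nearest KO peak lay 10379 bp from the Psrc1 peak, 105528 bp from the Gtse1 peak and 407258 bp from the Ckap2 peak. A pair of the peaks also covered the start site of a long noncoding RNA gene beside the named gene: Gm12522 at Psrc1 and Gm29878 at Ckap2. An interval at such a shared promoter cannot be assigned to one of its genes from position alone.

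Letters of the p53 half-site were sought in the 10 promoter windows. The half-site is 10 bases long, with 3 purines, C, a pair of A or T, G and 3 pyrimidines, and it reads the same on both strands. A pair was counted where both C and both G were intact and the other letters held at most 2 mismatches over both copies. With no bases between the copies, a pair was in 2 of the 10 windows, those of Gtse1 and Ckap2, against 0.326% of all 32851 windows of 300 bases. Of the 45 windows wholly inside a WT-specific peak 24.4% held such a pair, against 0.281% of the 32688 windows that no WT-specific peak overlapped. The 45 include windows of these genes, among them the Gtse1 and Ckap2 windows with the pair, so that share is not independent of them. The search was set after the sequences had been seen and the genes were chosen with results known, so the 2 of 10 is a description only. Gtse1 and Psrc1 each have 2 windows that overlap, so the 10 windows are not independent. These matches describe letters and are not measured sites of binding.

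The Gtse1 pair has 1 mismatch and the Ckap2 pair has 2. Both lie inside the WT-specific peaks of their genes. They are shown first, 5' to 3' on the strand of the gene, with letters that match the half-site in capitals and mismatches in lower case. The Gtse1 pair is at chr15:85859945-85859964 (plus strand), beginning 1 base before the start site of the second Gtse1 window. The Ckap2 pair is at chr8:22186003-22186022 (minus strand), beginning 203 bases before the Ckap2 start site.
Gtse1: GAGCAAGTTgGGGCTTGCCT
Ckap2: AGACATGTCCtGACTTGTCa

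In the 250 bases before the Ckap2 start site (GRCm38.p6, minus strand, chr8:22185820-22186069), all of them under the WT-specific peak, the pair is set in capitals.
Ckap2: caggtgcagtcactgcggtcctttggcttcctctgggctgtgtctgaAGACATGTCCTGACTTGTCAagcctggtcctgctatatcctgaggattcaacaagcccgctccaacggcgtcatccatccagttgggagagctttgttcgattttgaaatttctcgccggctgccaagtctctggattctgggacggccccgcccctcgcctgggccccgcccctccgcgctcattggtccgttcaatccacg

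The windows of Btg2, Plk2 and Psrc1 held no pair with at most 2 mismatches, although all 300 bases of the Btg2 and Plk2 windows and of 1 of the 2 Psrc1 windows were under a WT-specific peak. With a spacer of up to 13 bases allowed, the fewest mismatches were 4 at Btg2, 5 at Plk2 and 7 at Psrc1. These windows take in only part of each peak, and the other bases of the peaks were not searched.

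Sfn encodes 14-3-3 sigma, which keeps cyclin B and its kinase in the cytoplasm and so holds cells before mitosis. Gadd45a encodes a stress-induced protein that interferes with that kinase and takes part in DNA repair. Both are textbook p53 targets, and both were without a peak here. The nearest WT peak lay 106028 bp from Sfn (chr4:133600556-133602168) and 40317 bp from Gadd45a (chr6:67035096-67037407), and the nearest WT-specific peaks lay 262733 and 332477 bp away. The nearest KO peaks lay 11961 and 64648 bp away, and in Sfn this was closer than any WT peak. Since depth is unknown, binding below the level at which a peak was called cannot be told apart from no binding.

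Letters of the half-site in the promoter windows do not track these absences one for one. Bases of Sfn and Gadd45a outside their windows were not searched, so sites elsewhere in these genes would be missed. The Gadd45a window held a half-site without a mismatch, as did 8.36% of all windows. Joined to a second copy by a spacer of 6 bases, it made a pair with 2 mismatches. Pairs with a spacer of up to 13 bases were in 4.09% of all windows, so a match of this kind is not rare. The 250 bases before the Gadd45a start site (GRCm38.p6, minus strand, chr6:67037408-67037657), under no peak of any list, are shown with the half-site in capitals for comparison with Ckap2. The Sfn window held no half-site without a mismatch, and its best pair had 3 mismatches.
Gadd45a: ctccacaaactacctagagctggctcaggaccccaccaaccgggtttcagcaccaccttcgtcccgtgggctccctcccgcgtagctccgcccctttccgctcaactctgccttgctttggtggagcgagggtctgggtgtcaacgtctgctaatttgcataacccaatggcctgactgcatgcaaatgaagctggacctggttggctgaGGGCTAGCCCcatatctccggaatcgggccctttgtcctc

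Width is the only graded property in the lists, and it is not a measure of occupancy. The 9 WT-specific peaks had a median width of 736 bp (95% order-statistic interval 515 to 1454), against 454 bp (444 to 465) for the whole list. Btg2 and Plk2 each gave 2 of the 9 peaks, and the genes were chosen with earlier results known. The intervals treat peaks as independent, so they are a description and no test of a difference in width. In order, the widths were 209 bp at Plk3, 515 bp at Rb1, 532 bp at the 3' end of Btg2, 707 bp at Ckap2, 736 bp at Gtse1, 858 bp upstream of Plk2, 1056 bp at the Btg2 promoter, 1454 bp at the Plk2 start and 1559 bp at Psrc1. Of the 9, 8 were wider than the list median and Plk3 was narrower.

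The Psrc1 peak was at least as wide as 98.7% of the WT-specific list, the Plk2 start peak as 98.1% and the Btg2 promoter peak as 94.1%. The peaks of Gtse1 and Ckap2 stood at 83.5% and 81.2%, those of Rb1 and the Btg2 3' end at 59.2% and 61.4%, and that of Plk3 at 6.82%. Of the 9 peaks, 8 are in the promoter class, with a median of 797 bp (209 to 1559). The 324 WT-specific peaks of that class had a median of 483 bp (438 to 525), which lies inside that wide interval. Of all 9 peaks, 8 exceeded 483 bp, but these include the intergenic peak at Btg2. The 3 KO peaks were 216, 329 and 634 bp wide, around the KO list median of 345 bp.

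**Figure D2:**
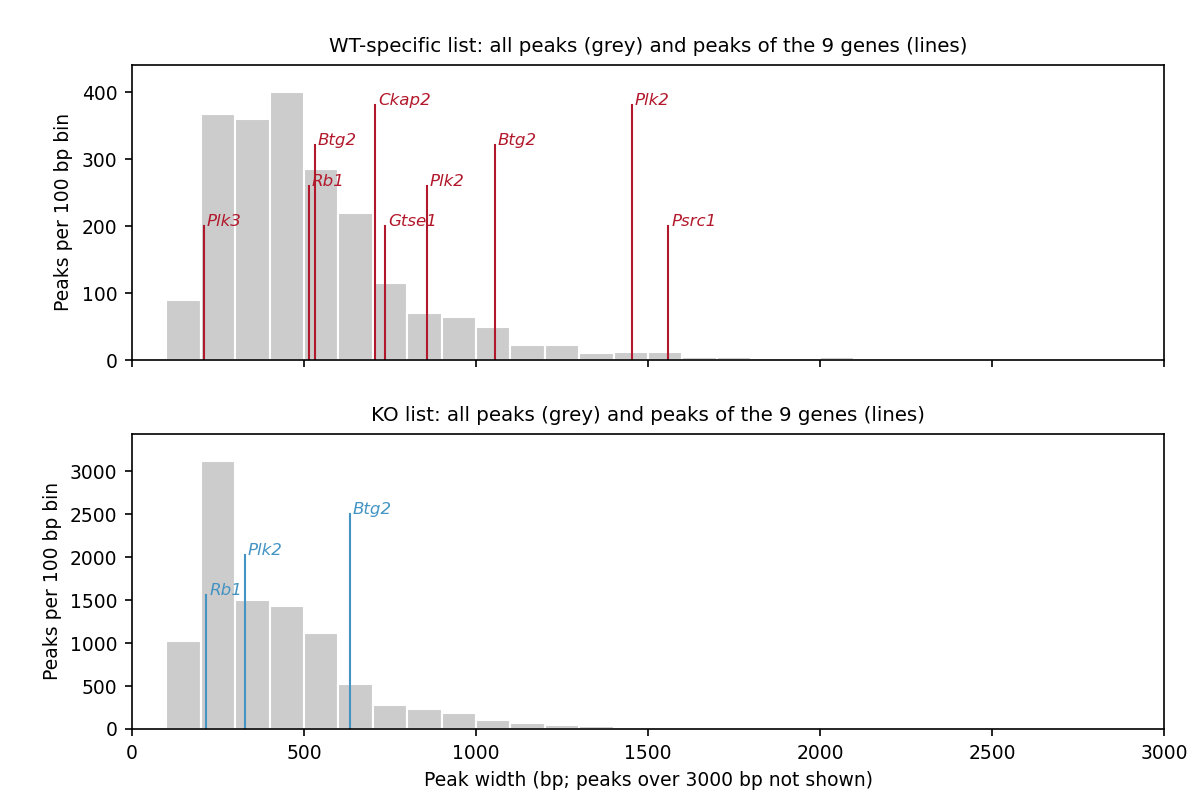
Histograms of peak width in bp (horizontal axis, bins of 100 bp) with the number of peaks on the vertical axis, for the WT-specific list (top) and the KO list (bottom); lines mark the peaks of the 9 genes, and their heights carry no value. Psrc1 (1559 bp) and the Plk2 start peak (1454 bp) lie in the right tail of the WT-specific list, and Plk3 (209 bp) lies near its left edge.

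By the deposited annotation 8 of the 9 WT-specific peaks were in promoters, against 15.2% of the whole list. The remaining one was the intergenic peak at Btg2. The 9 peaks were counted because they carried the label of a gene or lay within 5 kb of its span. The whole list was not filtered in this way. Such a rule leaves out peaks far from genes and so favours promoters, and the gap between these shares is no evidence of a trait of these genes. The Plk3 peak is among the 8 by the promoter of its neighbour. Of the 6 promoter-class peaks labelled with a gene that has a RefSeq window, 5 crossed the outermost start site of that gene's windows. In the whole list 45 of 171 such peaks did (26.3%), and only these 171 of the 324 promoter-class peaks could be placed. The promoter-class peaks of the 9 genes were wider, with a median of 797 bp against 483 bp. Whether width bears on this count was not tested. The genes were chosen with results known, so the count is a description only. The one that did not was the upstream Plk2 peak. From start site to peak midpoint the distances were -452.5 bp at Btg2, -105 bp at Ckap2, 222.5 bp at the Plk2 start peak, 305.5 bp at Gtse1 and 536 bp at Psrc1, negative values being upstream. A midpoint is not a measured summit.

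Repeats were in 5 of the 9 peaks, against 67.9% of the WT-specific list and 40.4% of its promoter class. Those of Plk3, Ckap2 and Rb1 and the Plk2 start peak had none. Long terminal repeats (LTRs), the ends of endogenous retroviruses, were in 2 of the 9 peaks, against 46.8% of the list and 16.7% of the promoter class. Both were spindle genes: an RMER15 element of the ERVL family took up 101 bp of the Gtse1 peak (13.7%), and RMER17C and RLTR51A_Mm, of 147 and 138 bp, together took up 217 bp of the Psrc1 peak (13.9%).

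The elements at the other genes belonged to other classes. The Btg2 promoter peak held a simple TG repeat of 64 bp (6.06% of the peak), and the upstream Plk2 peak overlapped 55 bp of a MIR3 element, an old SINE (6.41%). The peak at the 3' end of Btg2 had the highest repeat share of the 9, at 38.7%, from 206 bp of a MER2 DNA transposon. In every one of the 9 peaks, then, more bases lay outside annotated repeats than inside them. Neither of the Gtse1 and Psrc1 LTRs lay at the start site: the RMER15 element began at chr15:85860137 and RMER17C at chr3:108384629, both downstream of it.

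**Figure D3:**
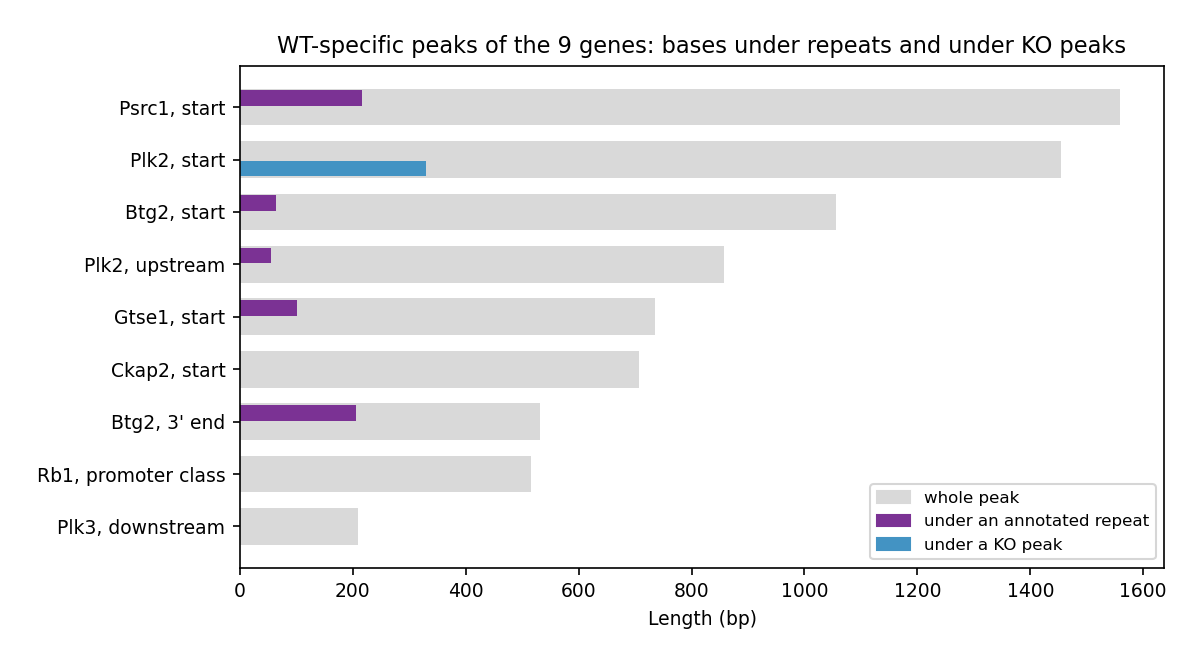
Width in bp (horizontal axis, grey bars) of each of the 9 WT-specific peaks (rows), with the number of bases under annotated repeats (purple) and under a KO peak (blue), each drawn from 0 and not at its position. Repeats take up the largest part of the Btg2 3' end peak (206 of 532 bp), and 329 bp of the Plk2 start peak are under a KO peak.

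The 3 genes with a KO peak showed 3 different arrangements. At Plk2 the KO peak lay inside a far wider WT-specific peak, at Btg2 it matched a WT peak that the WT-specific list leaves out, and at Rb1 it stood alone. Btg2 was the 1 gene of 9 with a WT peak that overlapped a KO peak outside the WT-specific list, against 7.97% of protein-coding genes. The share of genes with a KO peak, 33.3%, rests on these 3 intervals, and only that of Plk2 lay over the promoter window.

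Other genes of the cell cycle were examined from 5 lists of 74 genes in all, taken from general knowledge but with earlier results of these data known. Of the 74, 6 had a WT-specific peak (8.11%), 11 a WT peak (14.9%) and 14 a KO peak (18.9%), where 4.93%, 13.0% and 15.9% of protein-coding genes did. No gene of 17 cyclins, cyclin-dependent kinases and their switches had a WT-specific peak, and neither did any of 17 genes of kinase inhibitors, pocket proteins and E2F factors. In the KO list, 3 and 5 of these had a peak. Among the other p53 arrest targets 3 of 7 had a WT-specific peak: Cdkn1a, Ccng1 and Ptprv. Since these were listed as p53 targets with results known, their count is a description and no evidence of enrichment.

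Among 18 mitotic kinases and spindle genes only Birc5 had a WT-specific peak, of 363 bp and annotated as its promoter, 505 bp from the gene. Birc5 encodes survivin, a subunit of the chromosomal passenger complex. This count, 5.56%, is close to the 4.93% of all protein-coding genes. Any difference from Gtse1, Psrc1 and Ckap2 was not tested, since those were chosen with results known.

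Of 19 paralogs of the 9 genes, 2 had a WT-specific peak (10.5%, against 4.93% of protein-coding genes), 3 a WT peak (15.8%, against 13.0%) and 5 a KO peak (26.3%, against 15.9%). Of the 19, 4 had a KO peak free of any WT peak, against 10.9% of protein-coding genes. The 2 with a WT-specific peak both belong to the BTG family of Btg2. Btg1 had one of 344 bp in its 3' UTR (chr10:96621358-96621701), overlapping an ID_B1 SINE. The peak within 5 kb of Btg4, 725 bp wide, was labelled with the promoter of Mir34b, a microRNA gene that is itself a p53 target. The paralogs of the other genes (Gadd45b, Gadd45g, Plk1, Plk4, Plk5, Rbl1, Rbl2, Ckap2l and the other 14-3-3 genes) had no WT-specific peak, while Rbl1, Rbl2, Ywhaz, Gadd45g and Btg1 were the 5 with a KO peak. Marker genes of cell types were too few to read against 4.93%: none of 6 epithelial, 4 leukocyte and 2 endothelial genes had a WT-specific peak. A WT peak lay near 2 of the epithelial, 0 of the leukocyte and 1 of the endothelial genes, against 13.0% of protein-coding genes. For a KO peak these counts were 3, 0 and 1, against 15.9%.

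**Figure D4:**
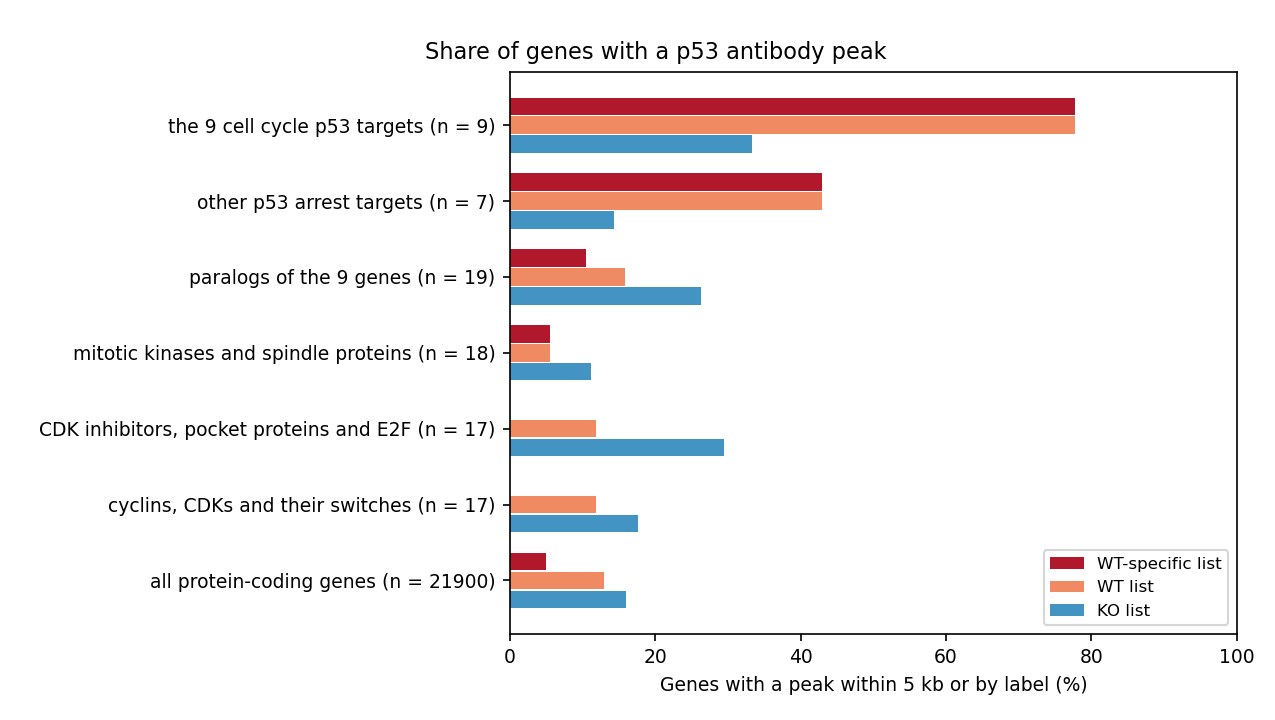
Percent of genes (horizontal axis) with a peak within 5 kb or by label in the WT-specific (red), WT (orange) and KO (blue) lists, for the 9 genes, 5 lists of other cell cycle genes and all protein-coding genes. The 9 genes stand at 77.8%, 77.8% and 33.3%, and the lists of cyclins and of kinase inhibitors have no WT-specific peak. Cdkn1a and Rb1, both with a WT-specific peak, are counted in other rows.

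Likeness between genes was taken as the same presence or absence in the WT-specific, WT and KO lists, over these 3 lists only. Gtse1, Plk3, Psrc1 and Ckap2, present in WT and absent in KO, shared their pattern with 3.27% of protein-coding genes, among them Cdkn1a, Ccng1, Birc5 and Btg4 of the cell cycle lists. Btg2, Plk2 and Rb1, present in all 3, shared theirs with 1.65%, among them Btg1. Sfn and Gadd45a, absent from all 3, had the pattern of 80.0% of protein-coding genes. With so few lists many genes share a pattern, and the pattern does not show that a WT and a KO peak coincide, as the 3 arrangements above make plain.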

How the data were processed

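Per the labels, p53 CUT&RUN was done in 2 WT and 2 KO samples. The tools, per the submitters' processing notes, were fastp, Bowtie2, MACS2 and deepTools, with build mm10. Of their settings and order, of pooling before peak calling and of the rule for WT-specific peaks, no account was given in the sources used here. The deposited files hold interval bounds (bp) with, for WT-specific peaks, a feature class, a gene name and overlapping repeats, and no score or count.

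Starts were read as 0-based and are printed 1-based. An overlap needed 1 bp, gene spans and promoter windows came from RefSeq tables of GRCm38.p6, and medians carry 95% order-statistic intervals, which treat peaks as independent. Python 3.11.15 with numpy 2.4.6 and pandas 2.3.3 was used. Overlap and motif code was tested on simulated data. No p-values were computed. The 9 genes and the lists were chosen with earlier results of these data known, and the motif search was set after the sequences had been seen. All 9 genes and each listed gene with a WT-specific peak are named.

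Alternatives covered the distance to a gene, the overlap rule, wider peaks only, and repeat coverage.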

Additional observations from a re-analysis of the deposited data

How the results depend on the processing

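Of 28 alternatives run on 8 results, 22 left counts within 1.5 times of the reported value or the median width within its interval. Genes with a WT-specific peak numbered 6 in place of 7 within 1 kb, inside the span, by label or with the wider peaks only, since Plk3 was then lost. The 3 genes with a KO peak fell to 1 inside the gene span (Rb1), to 1 with the wider KO peaks (Btg2) and to 1 with KO peaks that no WT peak overlaps (Rb1), the last chosen after seeing the data. The 1 WT-specific peak that overlapped a KO peak became 0 at 50% of its width, and the 5 with a repeat and the 2 with an LTR both became 0 at a repeat coverage of 50%. No paired analysis was possible because the lists carry no replicate, and for the same reason no replicate could be left out. Depth is unknown and limits every absence.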
